A study of Mus musculus with 6 samples.

Results

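Interferon-stimulated genes (ISGs) were examined as a group of 43 genes listed by name, in chromatin profiles of bone marrow-derived macrophages (BMDMs). The 43 genes were set against all 21911 protein-coding genes of the GENCODE M21 annotation. For each gene, peaks of H3K27ac (acetylated lysine 27 of histone H3, a mark of active promoters and enhancers) and of H3K4me1 (monomethylated lysine 4, a mark of enhancers) were counted around the transcription start site (TSS), taken as the 5′ end of the gene. In the annotation 41 of the 43 are protein-coding, and the other 2, Mx2 and Cxcl11, are polymorphic pseudogenes. All positions are in GRCm38.

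The BMDMs came from C57BL/6 mice and were treated for 1 h with lipopolysaccharide (LPS), the outer membrane component of Gram-negative bacteria, or with PBS as the untreated control, after differentiation in culture with L929-conditioned medium. The marks were profiled by CUT&RUN, in which an antibody directs a nuclease to chromatin and the released DNA fragments are sequenced. There was 1 library for H3K27ac, H3K4me1 and control IgG under each treatment, and the 4 histone libraries with a peak list are described here. With 1 library per treatment and antibody, no value has a replicate error and no test between treatments was possible.

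ISGs are the genes that type I interferons switch on through the receptor pair Ifnar1 and Ifnar2, the kinases Jak1 and Tyk2, and a transcription factor complex that includes Irf9. That complex binds the interferon-stimulated response element (ISRE), which has paired GAAA half-sites. In macrophages, LPS sensed by Tlr4 leads through Ticam1 and Irf3 to interferon beta, which then acts back on the same cells. Many ISGs, though not necessarily all, are therefore described as a secondary wave after the primary genes that NF-kB and AP-1 activate directly. Their products block viral translation and replication, sense foreign RNA and DNA, attach ISG15 to proteins, attack the vacuoles of intracellular pathogens, and attract T cells.

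The LPS H3K27ac list held 4200 peaks and the PBS H3K27ac list 52, with a median of 9 and 11 fragments at the summit. The H3K4me1 lists held 73049 peaks under LPS and 64758 under PBS, with a median of 17 fragments in each. Of 8 macrophage marker genes, 8 had an H3K4me1 peak within 10 kb under LPS and 6 under PBS, against 2 of 8 markers of other cells under either treatment. Because the PBS H3K27ac list was so short, the lack of a PBS peak at a gene says that none was called, not that the mark was absent.

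The sequences that bear on the results are the ISRE matches, since some of them lie beside the H3K27ac peaks described below. An ISRE match was defined as GAAANNGAAA on either strand. Promoter sequences, from 250 bases before to 50 after a RefSeq start on GRCm38.p6, were found for 34 of the 43 genes and not for Mx1, Mx2, Oas2, Usp18, Dhx58, Zbp1, Cxcl11, Parp9 or Parp14. The first set shows the ISRE with up to 20 bases on either side in the 8 genes whose promoter match came with LPS H3K27ac called within 1 kb. Sequences run 5′ to 3′ on the strand of the gene, and capitals mark every base of a match.
Ifit1, chr19:34640765-34640833, plus strand: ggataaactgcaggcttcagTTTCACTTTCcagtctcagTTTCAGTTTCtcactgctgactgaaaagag
Isg15, chr4:156200855-156200916, minus strand: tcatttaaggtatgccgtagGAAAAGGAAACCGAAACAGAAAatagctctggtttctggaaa
Ifih1, chr2:62646206-62646243, minus strand: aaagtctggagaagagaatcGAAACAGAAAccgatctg
Igtp, chr11:58199502-58199551, plus strand: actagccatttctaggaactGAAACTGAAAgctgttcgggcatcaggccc
Irgm2, chr11:58214893-58214942, plus strand: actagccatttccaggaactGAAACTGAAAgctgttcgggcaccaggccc
Irgm1, chr11:48871415-48871470, minus strand: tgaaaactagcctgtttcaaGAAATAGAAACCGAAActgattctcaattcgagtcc
Trim21, chr7:102565434-102565489, minus strand: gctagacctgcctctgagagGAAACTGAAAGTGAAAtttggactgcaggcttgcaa
Trim30a, chr7:104465200-104465249, minus strand: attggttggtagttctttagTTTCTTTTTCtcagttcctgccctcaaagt
The matches overlapped each other in Isg15, which has 3, and in Irgm1 and Trim21, which have 2 each. The Igtp and Irgm2 stretches differed at 2 of 50 bases, and whether reads from these paralogs can be told apart at their peaks was not tested.

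The second set shows genes with a promoter match but no LPS H3K27ac peak within 1 kb. They are 3 of 10 such genes, and the others were Ifit3, Oas3, Rsad2, Stat2, Eif2ak2, Gbp3 and Gbp5.
Gbp2, chr3:142620584-142620633, plus strand: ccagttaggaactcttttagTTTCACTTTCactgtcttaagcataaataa
Gbp7, chr3:142530263-142530312, plus strand: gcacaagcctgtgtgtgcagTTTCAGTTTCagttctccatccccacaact
Cxcl10, chr5:92349073-92349122, minus strand: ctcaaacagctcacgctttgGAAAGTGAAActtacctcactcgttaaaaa
The last 2 hold matches just past the end of an LPS H3K27ac peak away from a promoter, and are shown on the plus strand. The first lay between Rsad2 and Cmpk2, and the second inside Ifi47.
Rsad2 and Cmpk2, chr12:26460212-26460292: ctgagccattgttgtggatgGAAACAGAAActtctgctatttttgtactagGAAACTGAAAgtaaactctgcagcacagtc
Ifi47, chr11:49086909-49086958: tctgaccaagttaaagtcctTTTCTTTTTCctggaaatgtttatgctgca

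Whether ISGs carried H3K27ac 1 h after LPS was read from the share of genes with a called peak near the TSS. Among genes that had an H3K4me1 peak within 10 kb in unstimulated cells, H3K27ac was called under LPS within 10 kb of 23 of 41 ISGs (56.1%, 95% Clopper-Pearson interval 39.8 to 71.5%). Over all protein-coding genes with such a PBS peak the share was 1501 of 8983, or 16.7%. Within 50 kb the shares were 32 of 43 ISGs (74.4%, 58.8 to 86.5%) and 31.8% of all genes, and within 1 kb they were 7 of 17 (41.2%, 18.4 to 67.1%) and 8.27%. The interval lay above the share of all genes in each of the 3 windows. It covers counting error only and treats genes as independent, although neighbouring genes share peaks. The 43 genes were also chosen with earlier results of these data known, so the interval describes this list and is not a test. Counting ISGs with overlapping windows once, under the same H3K4me1 condition, 19 of 36 loci had an LPS H3K27ac peak within 10 kb and 21 of 27 within 50 kb.

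Without the H3K4me1 condition, 18 of 43 ISGs had LPS H3K27ac called within 1 kb (41.9%, 27.01 to 57.9%), against 5.00% of all protein-coding genes. Within 10 kb the count was 23 of 43 ISGs (53.5%), against 8.91%, and within 50 kb it was 32 (74.4%), against 22.8%. The nearest peak therefore lay within 1 kb in 18 ISGs, between 1 and 10 kb in 5, between 10 and 50 kb in 9, and beyond 50 kb in 11. In the PBS H3K27ac list, 0 of 43 ISGs had a peak within 10 kb, which allows a share of up to 8.22% by the same interval, against 34 of 21911 protein-coding genes (0.155%). Ifi47 had the single PBS peak within 50 kb.

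**Figure D1:**
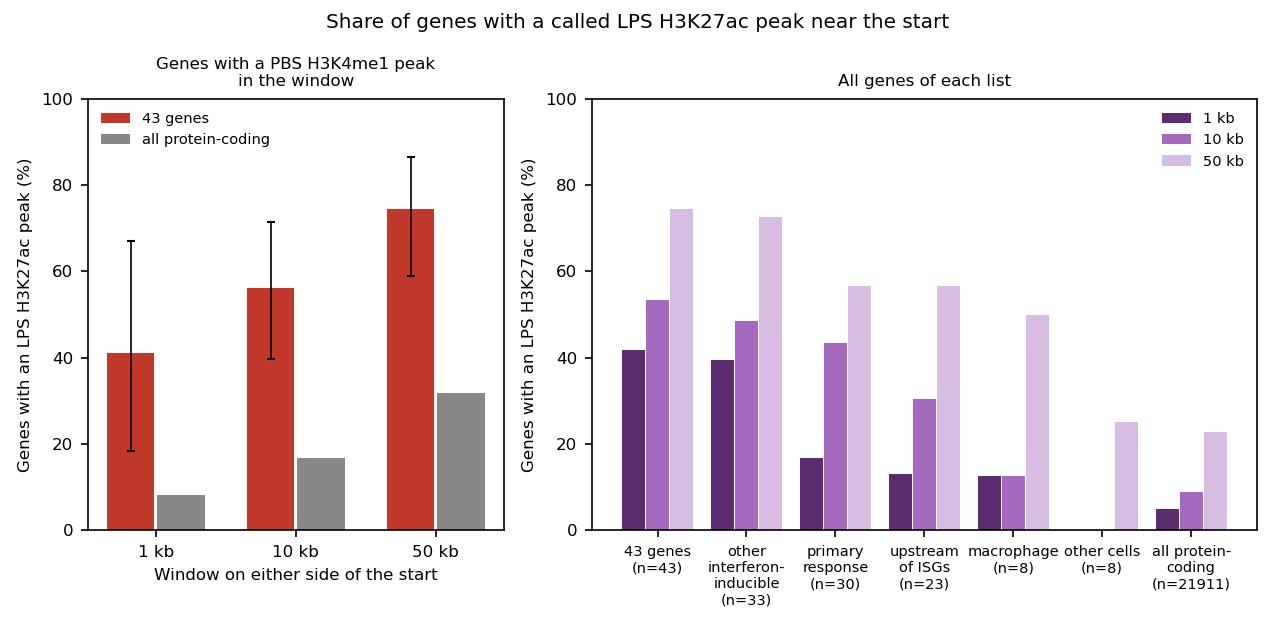
Share of genes (%) with LPS H3K27ac called within 1, 10 or 50 kb of the TSS. Left, genes that also have H3K4me1 under PBS in that window, with 95% Clopper-Pearson intervals for the 43 ISGs, whose bars reach 41.2, 56.1 and 74.4% beside 8.27, 16.7 and 31.8% of all genes. Right, all genes of each list, where the 2 interferon-inducible lists are highest at 1 kb.

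The 40 LPS H3K27ac peaks within 10 kb of an ISG gave a density of 51.3 peaks per Mb of window, each base counted once, against 5.22 per Mb around all protein-coding genes. Peaks of ISGs were also frequent among the strongest of the list. Ranked by −log10 q, the peak caller's significance, 6 of the top 100 and 16 of the top 500 peaks lay within 10 kb of an ISG, compared with 40 of all 4200 (0.952%). Several peaks often lay within 10 kb of one ISG. Of the 23 ISGs with a peak within 10 kb, 12 (52.2%) had 2 or more and 6 (26.1%) had 3 or more, against 21.5% and 5.12% of the 1952 protein-coding genes with a peak.

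**Figure D2:**
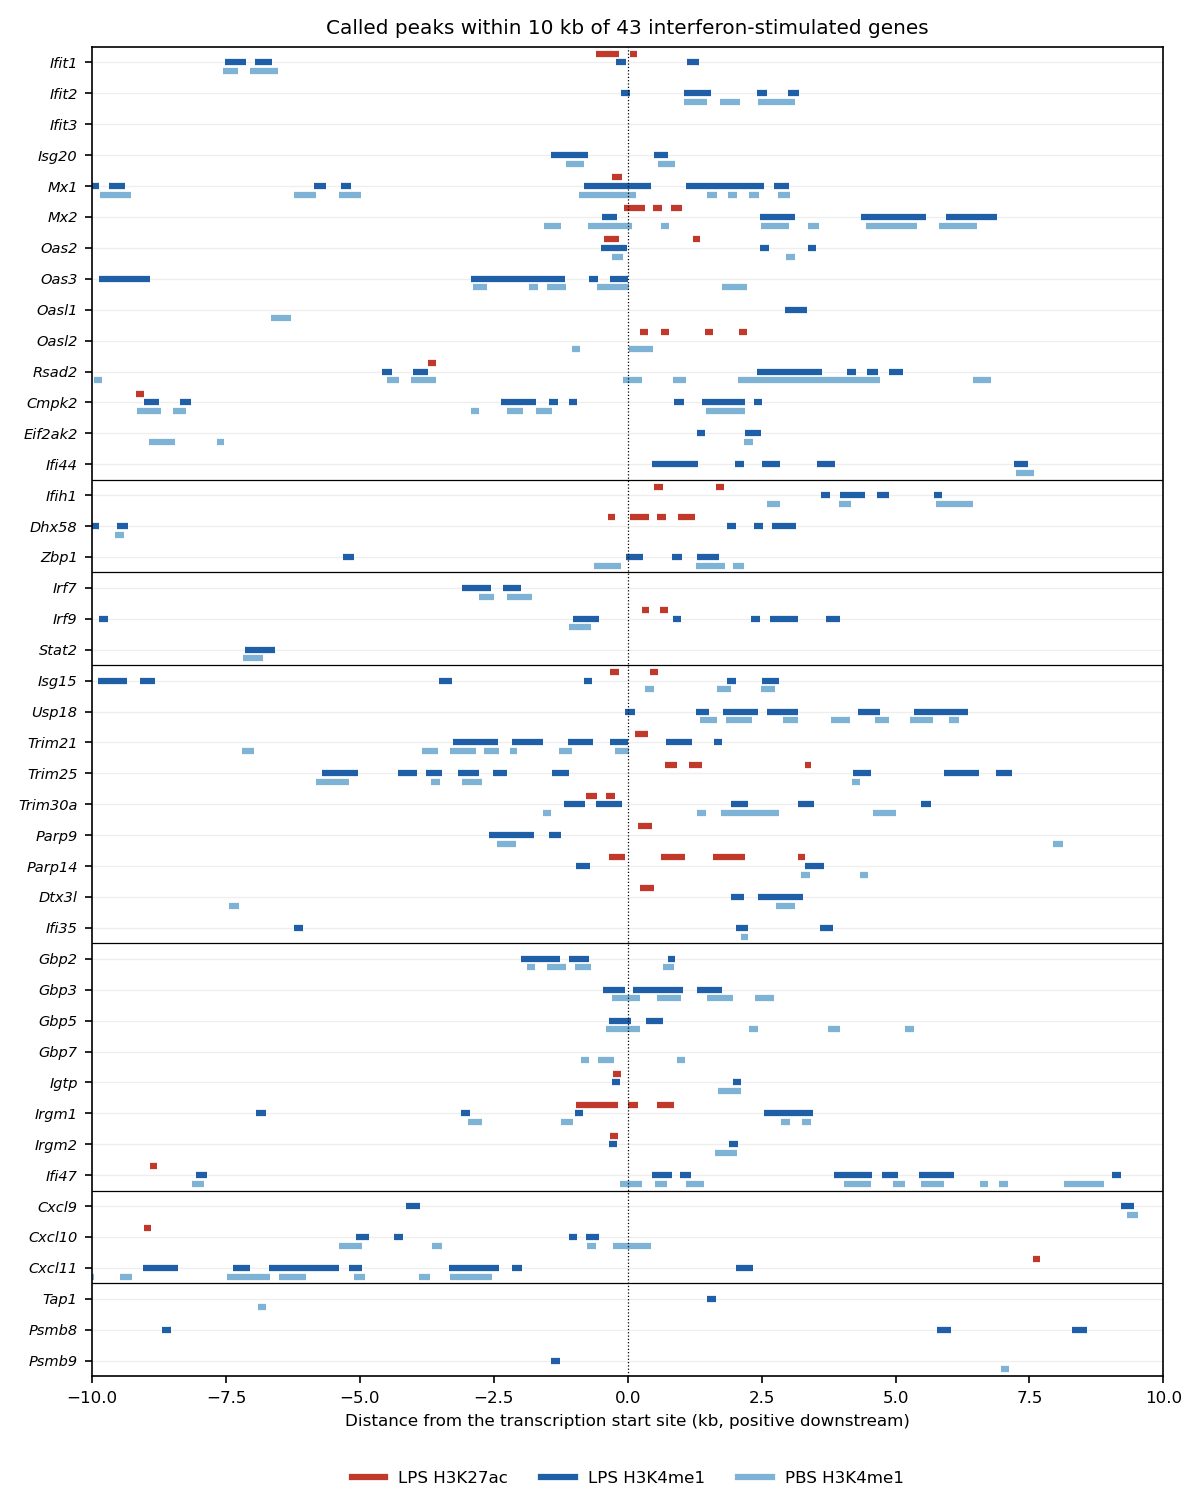
Called peaks within 10 kb of the TSS of each of the 43 ISGs, grouped by role, with distance in kb and the direction of transcription to the right. Red bars are LPS H3K27ac, dark blue LPS H3K4me1 and light blue PBS H3K4me1 peaks, and no PBS H3K27ac peak fell in these windows. Red bars gather within 1 kb of the TSS in 18 genes, and H3K4me1 bars lie mostly to the sides.

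Among the sensors of foreign nucleic acid, 2 of 3 had LPS H3K27ac at the promoter. Dhx58, which encodes the RIG-I-like receptor LGP2, had 4 peaks, with summits at −282, +167, +661 and +1019 bp from the TSS. Their −log10 q values were 5.47, 4.81, 5.19 and 6.64, with 12 to 18 fragments at the summit. The fourth spanned chr11:100703022-100703334 over a coding exon. Ifih1, which encodes the RNA sensor MDA5, had peaks at +567 bp, in a coding exon with a −log10 q of 3.87, and at +1681 bp, in an intron with 5.12. Zbp1, a sensor of Z-form nucleic acid, had H3K4me1 over its TSS under LPS, but its nearest LPS H3K27ac peak was 777828 bp away.

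Of the 3 transcription factors, Irf9, the DNA-binding subunit of the interferon-activated complex, had peaks at +338 and +708 bp, with −log10 q of 2.80 and 4.88. Stat2, which carries the type I interferon signal to the nucleus, and Irf7, the factor that amplifies interferon production, had none within 10 kb. Their nearest peaks were 31945 and 37758 bp away, and both lay at the promoters of other genes, Pan2 and Phrf1. The peak near Phrf1 had the most fragments of any within 50 kb of an ISG, 23 at the summit, and ranked 223 of 4200.

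Of 14 antiviral effectors, 5 had an LPS H3K27ac peak within 1 kb, 7 within 10 kb and 13 within 50 kb. Mx2, one of the dynamin-like antiviral GTPases, had 3 consecutive peaks at chr16:97535245-97536314 with summits at +254, +567 and +939 bp. They ranked 109, 71 and 25 of 4200, with −log10 q of 9.83, 11.0 and 14.9 and 15, 16 and 19 fragments at the summit. Its neighbour Mx1 had 1 peak at −170 bp with a −log10 q of 7.45 and 12 fragments. The first Mx2 peak covered the TSS and the other 2 lay downstream of it, while the near edge of the Mx1 peak lay 113 bp upstream of its TSS.

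Ifit1, which binds viral RNA that lacks the host cap modification, had a 428 bp peak at −445 bp (−log10 q 7.55, 15 fragments) and a 121 bp peak at +151 bp (4.35, 9 fragments). The upstream summit lay in an intron of Ifit1bl2, 317 bp from the start of that gene. Ifit2 and Ifit3, of the same cluster, had no peak within 10 kb. The peak at chr19:34570916-34571076, in an intron of Ifit2, was the nearest to both, at 20222 bp from the Ifit2 and 12455 bp from the Ifit3 TSS.

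The oligoadenylate synthetase and synthetase-like genes differed among themselves. Oas2 had peaks at −232 and +1255 bp, with −log10 q of 3.42 and 3.87. Oas3 had none within 10 kb and its nearest was 27358 bp away. Oasl2 had 4 peaks between +314 and +2193 bp, of which the one at +713 bp was the strongest (−log10 q 7.46, 14 fragments, rank 311) and the other 3 rested on 5 or 6 fragments. Oasl1 had none within 10 kb, and its nearest was 24071 bp away.

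Rsad2, which encodes the radical SAM enzyme viperin, and Cmpk2, a nucleotide kinase gene transcribed away from it, shared the peak at chr12:26460024-26460179, next to the ISRE matches shown above. Its summit was 3700 bp upstream of Rsad2, with a −log10 q of 6.52 and 11 fragments, and a PBS H3K4me1 peak lay over it. An LPS H3K4me1 peak began at its last base. The nearest peaks of Ifi44 and of Eif2ak2, which encodes the translation inhibitor PKR, were 35162 and 39699 bp away and rested on 7 and 6 fragments. Isg20, an exonuclease gene, had none within 50 kb.

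The ISG15, ubiquitin and ADP-ribose genes had the highest share within 1 kb among the roles, with a peak in 7 of 9. Isg15, the ubiquitin-like modifier, had a peak at −201 bp (−log10 q 6.21, 13 fragments) and one at +471 bp (2.93, 9 fragments). Trim25, an E3 ligase that acts on RIG-I, had the strongest peak of any ISG, at +1274 bp in an intron at chr11:89000521-89000765. It had a fold enrichment of 11.0, a −log10 q of 15.3 and 21 fragments, and ranked 21 of 4200. Further Trim25 peaks at +692 and +3398 bp were weak, with −log10 q of 3.23 and 2.13.

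Parp14, an ADP-ribosyltransferase gene, had 4 peaks, at −74, +1019, +1744 and +3227 bp, with −log10 q of 6.35, 13.3, 6.47 and 2.73. The second was 446 bp wide, had 19 fragments and ranked 32. Parp9 and Dtx3l, whose products work as a pair and whose genes start close together on opposite strands, shared 1 peak at chr16:35938661-35938928 with a −log10 q of 7.16. Trim21, the cytosolic antibody receptor and E3 ligase, had a peak at +213 bp whose −log10 q of 2.11 placed it 4138 of 4200. Trim30a had peaks at −279 and −629 bp, with −log10 q of 6.47 and 5.03. Usp18, which removes ISG15 from proteins, and Ifi35 had none within 50 kb.

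The GTPases fell into 2 families. Of the 4 immunity-related GTPases, which act on pathogen vacuoles, Irgm1 had 3 peaks. The one at −472 bp was 778 bp wide, the widest at any ISG, with a −log10 q of 14.2, 17 fragments and rank 27, and the one at +115 bp ranked 99 with a −log10 q of 10.1. Igtp had 1 peak at −182 bp with a −log10 q of 7.86. In the annotation the 5′ end of Irgm2 lies beside that of Igtp and 15359 bp from its RefSeq start, so that within 10 kb it was counted with the Igtp peak. At its RefSeq start it had a peak of its own, at chr11:58214519-58214881, with a −log10 q of 10.4 and rank 91. Ifi47 had a weak peak 8797 bp upstream, with 5 fragments.

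An untranslated exon of Ifi47, in a stretch that Olfr56 shares, held the single PBS H3K27ac peak within 50 kb of an ISG and, near it, an LPS peak. The LPS peak, at chr11:49086753-49086928, had 13 fragments and ranked 378 of 4200. The PBS peak, at chr11:49087082-49087215, had 10 fragments and ranked 33 of 52. They were 153 bp apart and did not overlap. The other family, the guanylate-binding proteins Gbp2, Gbp3, Gbp5 and Gbp7 on chromosome 3, had no LPS H3K27ac peak within 50 kb, and the nearest was 99210 bp from Gbp5.

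Of the chemokine genes, whose products bind CXCR3 on T cells, none had a peak within 1 kb. Cxcl10 and Cxcl11 shared a peak of 8 fragments at chr5:92357790-92357914, 8901 and 7571 bp from their starts and in an intron of Art3, with a −log10 q of 2.70. It was also the nearest to Cxcl9, at 29711 bp. The antigen-processing genes, which lie together on chromosome 17, had none within 50 kb. They are Tap1, a subunit of the peptide transporter, and Psmb8 and Psmb9, subunits of the immunoproteasome.

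The median width of the 29 LPS H3K27ac peaks within 1 kb of an ISG was 179 bp, and the median number of fragments at their summits was 12. Of these, 18 (62.1%) had a −log10 q of at least 5, against 35.5% of the 1059 peaks within 1 kb of any protein-coding TSS and 26.3% of the whole list. The nearest TSS was that of an ISG for 28 of the 29. Within 50 kb it was so for 46 of 62, and the rest lay nearer another gene. Within 1 kb there were 27 summits, with a median position of +213 bp, and 17 of them were downstream. Over all protein-coding genes the median was +155 bp, and 694 of 1026 were downstream. Summits between the TSS and +200 bp made up 11.1% at ISGs and 23.7% over all genes.

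H3K4me1 lay beside these promoter peaks and seldom under them. An LPS H3K4me1 peak overlapped, by at least 1 bp, 7 of the 29 (24.1%) and a PBS H3K4me1 peak 6 (20.7%). Over all 1059 promoter peaks the shares were 15.1 and 8.31%. The median distance to the nearest PBS H3K4me1 peak was 1037 bp at ISGs and 1866 bp over all promoter peaks, and 13 of 29 against 30.4% had one within 1 kb.

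H3K4me1 was called near most ISGs under either treatment. Within 10 kb of the TSS, 41 of 43 ISGs (95.3%, 84.2 to 99.4%) had a PBS peak, against 41.0% of protein-coding genes. An LPS peak was found at 40 (93.0%, 80.9 to 98.5%), against 47.6%, and a peak of both lists at 39 (90.7%, 77.9 to 97.4%), against 37.3%. Within 1 kb, 17 ISGs had a PBS and 24 an LPS peak. Of these, 10 had an LPS peak alone, while Gbp7, Oasl2 and Rsad2 had a PBS peak alone. Over all protein-coding genes, 3457 of 21911 had a PBS peak within 1 kb. Of the 15857 protein-coding genes with a promoter sequence but no ISRE match, 25.1% had an LPS and 16.1% a PBS peak within 1 kb. Of the 665 with a match, the shares were 23.5 and 18.5%. The share of all genes with an LPS peak alone within 1 kb is not given here, so the 10 ISGs have no comparison. Within 50 kb all 43 ISGs had a peak in both lists, compared with 65.7% of protein-coding genes in the PBS and 69.7% in the LPS list.

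The 4 ISGs that lacked an H3K4me1 peak in a list within 10 kb belonged to 3 roles. Psmb8 had peaks under LPS alone, covering 713 bp, and the nearest PBS peak was 16920 bp away. Gbp7 had 3 PBS peaks covering 608 bp, and the nearest LPS peak was 29216 bp away. Oasl2 had 2 PBS peaks covering 590 bp, one of them 18 bp from the TSS, while under LPS the closest one lay at 29235 bp. The first of the 4 LPS H3K27ac peaks of Oasl2 overlapped that PBS peak. Ifit3 had none in either list.

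The bases inside H3K4me1 peaks within 10 kb of the ISGs came to 57.3 kb under LPS and 47.0 kb under PBS, in 146 and 130 peaks, with each base and peak counted once. Of these, 24.9 kb lay in peaks of both lists, which was 43.4% of the LPS and 52.8% of the PBS bases, against 46 and 62.3% around all protein-coding genes. Oasl1, Tap1 and Psmb9 had peaks in both lists but no shared base. The ratio of covered length was 1.22, against 1.35 around all protein-coding genes. Within 50 kb it was 1.28 and 1.27. Of 42 ISGs with a peak in either list, 28 (66.7%) had more covered bases under LPS, with a median difference of +241.5 bp (LPS minus PBS). Over all protein-coding genes with a peak it was 71.8%, with a median of +257 bp. The difference between treatments at ISGs was thus close to that of the lists as a whole.

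Single genes departed in both directions. Trim25 had the largest difference, with 3563 bp under LPS and 1349 under PBS. Ifi44 had 1934 and 348 bp, Irf9 1779 and 409 bp, and Oas3 3199 and 1849 bp. Cxcl11 had 3966 and 2741 bp, Isg15 1713 and 687 bp, Dhx58 1129 and 169 bp, and Trim21 2895 and 1948 bp. These 8 had the largest gains in coverage under LPS, from +947 bp at Trim21 to +2214 bp at Trim25. LPS H3K27ac was called within 1 kb of 5 of them, against 18 of all 43 ISGs. It was also called there at Mx2 and Oasl2, which were among the 8 genes with the largest losses.

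Coverage was lower under LPS than under PBS at 14 ISGs. At Rsad2 it was 2331 bp under LPS and 4419 under PBS, the largest difference of this direction. Ifi47 had 2598 and 3408 bp, Cxcl10 811 and 1506 bp, Mx2 3126 and 3664 bp, Gbp5 718 and 1193 bp, and Ifit2 1072 and 1494 bp, besides Gbp7 and Oasl2 with none under LPS. Over all 43 ISGs, a PBS peak alone lay over the TSS in 5, namely Rsad2, Mx2, Cxcl10, Ifi47 and Gbp3. An LPS H3K4me1 peak alone did so in 3, namely Ifit2, Zbp1 and Usp18, and peaks of both lists in 4. Over all 21911 protein-coding genes, a PBS peak alone lay over the TSS in 649, an LPS peak alone in 1485 and peaks of both lists in 637. In each of these counts, 1 library stands for each treatment, and the spread between libraries is unknown.

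**Figure D3:**
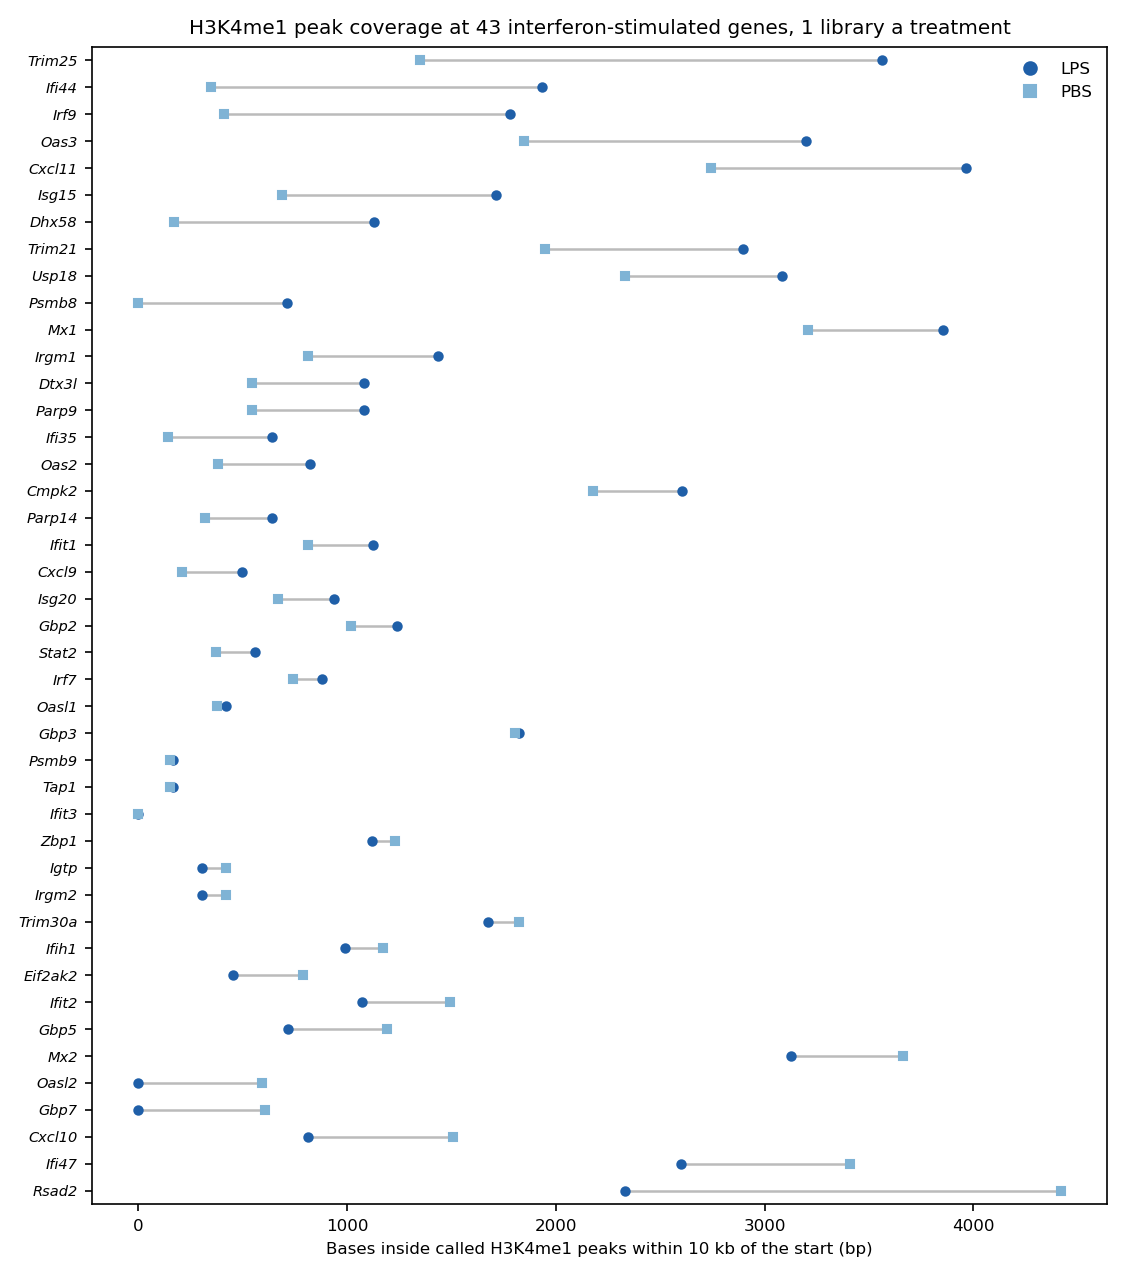
Bases (bp) inside called H3K4me1 peaks within 10 kb of the TSS, for each of the 43 ISGs, under LPS (dark circles) and PBS (light squares), 1 library a treatment. Genes are ordered by the difference, from Trim25 with 3563 and 1349 bp to Rsad2 with 2331 and 4419 bp.

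The promoters of the ISGs were searched for 5 short motifs on both strands. Each was searched on its own, so a stretch could count for more than one. An ISRE match was present in 18 of 34 ISG promoters (52.9%, 35.1 to 70.2%), against 4.02% of 16522 protein-coding genes in the same table. By role, it was present in 7 of 8 GTPase genes, 5 of 11 antiviral effectors, 3 of 6 genes of the ISG15 group and 0 of 3 antigen-processing genes. A GAS element (TTCNNNGAA) and an AP-1 site (TGANTCA) were each found in 9 of 34 (26.5%), against 9.02 and 8.15% of all genes. A kB site (GGGNNTTTCC) was found in 1, and the PU.1 site (GAGGAAGT) in 2 (5.88%), against 1.83 and 3.62%.

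Of the 18 ISGs with an ISRE in the promoter, LPS H3K27ac was called within 1 kb of 8 (44.4%, 21.5 to 69.2%), against 4 of 16 (25.0%, 7.27 to 52.4%) without one. The intervals overlapped. Among other protein-coding genes the shares were 61 of 647 (9.43%) with and 815 of 15841 (5.15%) without an ISRE. The peak was therefore more frequent at ISGs than at other genes that hold the same letters.

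Of the 26 ISRE matches in ISG promoters, 0 lay under an LPS H3K27ac peak. Only 8 of the 18 genes with a match had such a peak within 1 kb, and at the others none was near enough to cover one. An LPS H3K4me1 peak covered 3 matches, in Ifit1 and Oas3. A PBS H3K4me1 peak covered 7, in Oas3, Gbp3, Trim21, Trim30a and Cxcl10. The Trim30a match so covered is not the one shown above. It lay at a second RefSeq start, 19068 bp from the 5′ end of the gene. Within 200 bp of the summit, 14 of 62 LPS H3K27ac peaks within 50 kb of an ISG (22.6%, 12.9 to 35.0%) held a match, against 7.52% of all 4200. Within 100 bp of the summit it was 3 of 62 (4.84%), against 2.88%, and inside the peak 1 of 62 (1.61%), against 2.55%. The centres of the 20 matches in the 200 bp windows were 56 to 192 bp from the summit, with a median of 142.5 bp. Of these, 17 lay more than 100 bp away, and the window sets the upper limit. The nearest were at Ifi47, 56 bp from the summit, Rsad2, at 85 and 116 bp, and Parp9, at 87 bp, all in peaks beyond 1 kb from the TSS. At Isg15 the matches were 127 to 139 bp from the summit, at Irgm1 122 and 128 bp, and at Igtp 153 bp. At Irgm2 the distance was 173 bp, at Trim21 186 and 192 bp, at Dhx58 167 bp, at Oas2 165 bp and at Parp14 186 bp. Oasl2 had matches at 146, 169 and 175 bp, and a peak 42452 bp from Trim30a had one at 122 bp. Promoter matches outside the window included both of Ifit1, the first of them 233 bp from the nearest summit. The Trim30a match shown above, at 248 bp, and that of Ifih1, at 530 bp, were also outside it.

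**Figure D4:**
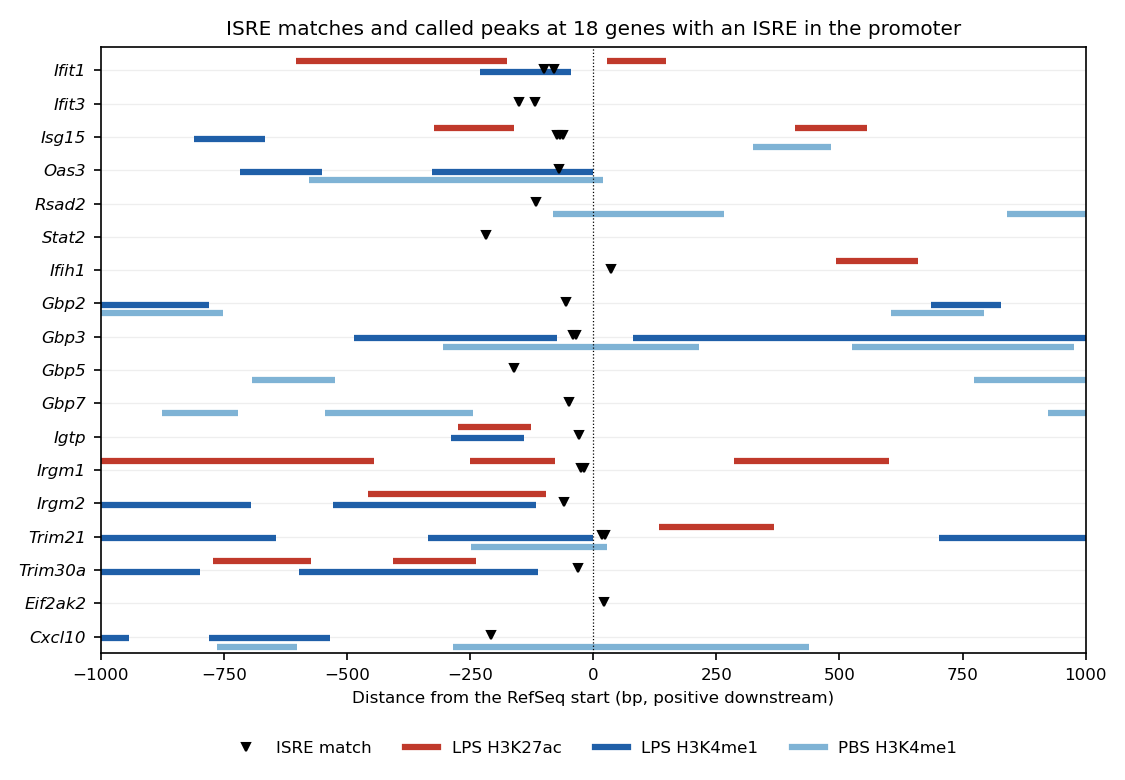
ISRE matches (triangles) and called peaks within 1000 bp of the RefSeq start in the 18 ISGs with a match in the promoter, in bp with the direction of transcription to the right. LPS H3K27ac peaks (red) were present in 8 of the 18, LPS H3K4me1 (dark blue) in 10 and PBS H3K4me1 (light blue) in 9, and no red bar covers a triangle.

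H3K4me1 peaks within 10 kb of an ISG also held ISREs more often than their lists. Within 200 bp of the summit a match was present in 21 of 146 such LPS peaks (14.4%), against 5.82% of that list, and in 19 of 130 PBS peaks (14.6%), against 5.99%. Within 50 kb, the distance used for H3K27ac, the shares were smaller. They were 30 of 301 LPS peaks (9.97%, 6.83 to 13.9%) and 23 of 251 PBS peaks (9.16%, 5.90 to 13.4%). The PBS interval included the 5.99% of its list. No narrower window was searched in H3K4me1 peaks. A GAS match was present in 14 of the 62 H3K27ac peaks (22.6%), against 12.1% of the list. An AP-1 match was present in 9 (14.5%), against 14.7%, a PU.1 match in 3 (4.84%), against 5.45%, and a kB match in 2 (3.23%), against 2.43%. The GAS share depended on the window. Within 100 bp of the summit it was 4 of 62 (6.45%), against 5.43%, and inside the peak 1 of 62 (1.61%), against 4.79%.

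Other genes of the interferon system were counted by the same windows. Of 33 further interferon-inducible genes, 13 (39.4%) had an LPS H3K27ac peak within 1 kb, 16 within 10 kb and 24 within 50 kb, close to the shares of the 43 ISGs. The strongest was at Ifitm3, which encodes a block to virus entry and had 4 peaks, the best ranked 26 of 4200. Samd9l, Ddx60 and Herc6 had peaks of rank 161, 213 and 312. Peaks of Slfn8, B2m and Lgals3bp followed, with ranks 921, 1143 and 1280. The others were Nmi, Ifi204, Oas1g, Pml, Rnf213, Xaf1, Tapbp, Parp12 and Tor3a, with ranks from 1321 to 4133. An ISRE was present in 12 of the 24 promoters of this list that were in the table.

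Of 23 upstream genes, which carry the signal from LPS to interferon and from interferon to the ISGs, 3 (13.0%) had a peak within 1 kb, 7 within 10 kb and 13 within 50 kb. Those within 10 kb were Tmem173, Ticam1, Ifnar2, Ikbke, Ifngr1, Tlr4 and Irf5, and their ranks lay between 1489 and 4080. The gene of interferon beta, Ifnb1, named here after its values were seen, was not among them.

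Of 30 primary LPS response genes, 5 (16.7%) had a peak within 1 kb, 13 (43.3%) within 10 kb and 17 (56.7%) within 50 kb. The strongest was at Tnfaip2, 4535 bp from the TSS and of rank 48, and the others were Tnf, Ccl4, Ccl3, Zfp36, Junb, Il1b, Tnfaip3, Traf1, Ier2, Nfkbia, Fosb and Cd83, with best ranks from 555 to 4094. Within 1 kb the interval of the primary genes, 5.64 to 34.7%, overlapped that of the 43 ISGs, and within 10 kb the shares were 43.3 and 53.5%. An ISRE was present in 0 of the 25 primary gene promoters in the table.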

How the data were processed

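CUT&RUN peak lists of 4 of the 6 libraries were used. The 2 IgG libraries have no peak list among the files used here. The authors aligned the reads to GRCm38 with Bowtie2 2.4.4, removed blacklisted regions and called peaks per library with MACS2 2.2.7.1, without pooling replicates. Each deposited list gives, per peak, a fold enrichment (a ratio of fragment coverage to local background), the −log10 of the p-value and of the q-value, and a score that was not used. These values were ranked within a list and not compared between lists.

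Windows of 1, 10 and 50 kb were set around the 5′ end of each gene in GENCODE M21, on the same build, and a peak counted when at least 1 bp lay inside. The comparison was with all protein-coding genes that met the same PBS H3K4me1 condition. Fragments at a summit were solved from the fold enrichment (pseudocount 1) and p with 1 scaling per library, which returned the deposited p within 0.002 for 99.99 to 100% of peaks in each list. Depth is otherwise unknown. Motifs were searched in RefSeq promoters, and only the genes in that table were counted. Scripts ran in Python 3.11.15 with SciPy 1.17.1 and pysam 0.24.0 and were tested on simulated data.

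The members and gene lists were chosen with earlier results of these data known. By the rule for named genes, full values are given for each ISG with an H3K27ac peak within 10 kb, the nearest peak of the others, and the 8 largest and 8 smallest H3K4me1 differences. Of the list of other interferon-inducible genes, Mnda was not in the annotation. With 1 library a group, no p-value is given. Alternatives covered the peak threshold, the start site, the window, the H3K4me1 condition, list size and motif window.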

Additional observations from a re-analysis of the deposited data

How the results depend on the processing

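No paired analysis was possible because each antibody and treatment had a single library, and for the same reason no replicate could be left out. Of 34 values recomputed for 9 results, 28 stayed within the 95% interval of the reported share, or within 1.5 times the reported ratio of covered length. Limiting all lists to peaks with a −log10 q of at least 5 moved 4 shares. The share of ISGs with an LPS H3K27ac peak within 50 kb became 50% (20 of 40), against 14.5% of all genes, and at 10 kb it was 43.3%, against 6.91%. The shares with H3K4me1 within 10 kb became 76.7% under LPS, 69.8% under PBS and 60.5% in both, against 35.9, 29.7 and 25.3%. A smaller motif window moved the ISRE share of LPS H3K27ac peaks within 50 kb to 4.84% within 100 bp of the summit and to 1.61% in the peak itself, which was below the 2.55% of all peaks. In the other 25 recomputed shares with a comparison the ISG value lay above that of all genes or peaks. The covered length ratio within 50 kb was 1.29 at the −log10 q of 5, below the 1.32 of all genes, and above theirs as reported. With H3K4me1 lists of 64758 peaks each, the covered length ratio was 1.14 within 10 kb, against 1.26 over all genes. Few fragments lie behind a peak, so genes without a called peak may hold the mark below the limit of these libraries.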

Other observations

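Promoter base composition was compared over all ISGs in the table, whether or not H3K27ac was called at them. The median ratio of observed to expected CpG was 0.357 over 34 ISG promoters, 0.598 over all 16522 protein-coding genes in the table, 0.623 over 25 primary response genes, and 0.785 over the 888 protein-coding genes with an LPS H3K27ac peak within 1 kb. The median GC content was 53% in ISGs, 57% over all genes and 59.7% in those with the peak.

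Clusters of ISGs differed from one another. Around the 4 guanylate-binding protein genes on chromosome 3, 50 kb on either side held 10 LPS and 18 PBS H3K4me1 peaks, covering 5218 and 6081 bp, and 0 H3K27ac peaks. Around Ifit1, Ifit2 and Ifit3 on chromosome 19 there were 27 LPS and 16 PBS H3K4me1 peaks, covering 11983 and 8666 bp, and 5 LPS H3K27ac peaks. Parp9, Parp14 and Dtx3l on chromosome 16 had 14 H3K4me1 peaks under either treatment and 7 LPS H3K27ac peaks.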
